A study of Mus musculus with 16 samples.

Results

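The 38 genes described here encode chaperones and folding factors, with the sensors and transcription factors that control them. Of these, 22 act in or at the endoplasmic reticulum (ER), 13 in the cytosol and nucleus and 3 in mitochondria. They were picked by symbol from a list of names, which was drawn up with earlier results of these data known. All 38 were found among the 30386 genes of the table, and 37 were among the 12533 genes tested, which had more than 1 CPM (the reads of a gene scaled to a common library total) in at least 4 of the 16 samples. The gene left untested was *Hspb1*, the small heat shock protein of the cytosol, whose level lay between 0 and 2.42 CPM in *GFP*-NSPCs and between 0 and 0.91 CPM in *Dbx2*-NSPCs.

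The cells were neural stem/progenitor cells (NSPCs) from the subventricular zone (SVZ) of C57BL/6J/Babr mice 3 months of age, grown as proliferating, non-adherent cultures. Control cells carried a constitutive *GFP* transgene (*GFP*-NSPCs, 8 samples), and the other cells a constitutive *Dbx2* transgene (*Dbx2*-NSPCs, 8 samples). The comparison asks how the transcriptome of NSPCs differs when this homeobox gene is overexpressed. The study used pairs of puromycin-selected lines from independent SVZ derivations kept as bulk cultures, and the labels used here do not say which line gave which sample. The 8 samples of a group are repeat experiments with these lines, so other differences between paired lines cannot be told apart from the transgene.

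Secreted and membrane proteins fold in the ER, where the Hsp70 protein BiP (*Hspa5*), the Hsp90 protein GRP94 (*Hsp90b1*), the lectins calnexin and calreticulin and the protein disulfide isomerases assist them. When unfolded proteins accumulate there, the sensors IRE1 (*Ern1*), ATF6 and PERK start the unfolded protein response (UPR), which raises the transcription of many ER chaperones together, partly through the spliced form of XBP1. The cytosol has a separate heat shock response under HSF1, which raises *Hspa1b*, *Dnajb1*, *Hsph1* and *Bag3*, and the mitochondrial matrix has its own Hsp70 (*Hspa9*) and the chaperonin pair Hsp60 and Hsp10 (*Hspd1* and *Hspe1*). In neural stem cells these systems serve the protein synthesis that growth and division require.

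The DNA that ties many ER chaperone genes to the UPR is the ER stress element (ERSE), a CCAAT box and the letters CCACG with 9 bases between them. It is shown here because *Hspa5* and *Hsp90b1*, whose levels moved in opposite directions, both hold its letters. A link between these letters and the levels was not tested. The sequences are RefSeq promoter windows of GRCm38.p6, from 250 bases before to 50 bases after each gene's RefSeq start, and 30 of the 38 members had an entry. The motif searched, on both strands, was CCAAT, then any 9 bases, then CCACG. The ERSE letters were in 8 of the 19 ER members with an entry, in 0 of the 9 cytosolic and in 0 of the 2 mitochondrial members, against 0.137% of the 27025 genes with a promoter entry. The capitals below mark the CCAAT and CCACG letters, each match is written in the direction CCAAT to CCACG, and the strand is that of the letters shown.
Hspa5, chr2:34772025-34772043, plus strand: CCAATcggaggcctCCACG
Hsp90b1, chr10:86705638-86705656, minus strand: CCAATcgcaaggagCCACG
Hsp90b1, chr10:86705533-86705551, plus strand: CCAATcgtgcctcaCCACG
Calr, chr8:84847075-84847093, plus strand: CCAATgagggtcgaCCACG
Canx, chr11:50325800-50325818, minus strand: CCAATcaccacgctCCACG
Pdia6, chr12:17266491-17266509, plus strand: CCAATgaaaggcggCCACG
Dnajc3, chr14:118937827-118937845, plus strand: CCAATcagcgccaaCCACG
Syvn1, chr19:6046532-6046550, plus strand: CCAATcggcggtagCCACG
Creld2, chr15:88819520-88819538, minus strand: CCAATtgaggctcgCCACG

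*Hspa5* and *Hsp90b1* were the members that passed the test over all samples in limma, the first higher and the second lower in *Dbx2*-NSPCs, and both hold the element. The other members with its letters, *Calr*, *Canx*, *Pdia6*, *Dnajc3*, *Syvn1* and *Creld2*, did not pass that test. *Hspa5* holds 1 match, 65 bases before its RefSeq start. In the GENCODE annotation *Hspa5* begins earlier, at 34771970, so that the match lies inside the gene there. *Hsp90b1* holds 2 matches, at 212 and 107 bases before its RefSeq start. The nearer of these lies on the other strand and so reads CGTGG to ATTGG in the run below. Each run covers the 250 bases before the RefSeq start on the gene's strand, from chr2:34771840-34772089 (plus strand) and chr10:86705445-86705694 (minus strand), and capitals mark the CCAAT and CCACG letters on either strand.
Hspa5: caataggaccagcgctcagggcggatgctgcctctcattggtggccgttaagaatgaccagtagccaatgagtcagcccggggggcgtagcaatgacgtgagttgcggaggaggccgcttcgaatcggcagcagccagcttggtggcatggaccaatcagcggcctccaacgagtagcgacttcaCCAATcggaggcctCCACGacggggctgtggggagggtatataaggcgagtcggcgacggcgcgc
Hsp90b1: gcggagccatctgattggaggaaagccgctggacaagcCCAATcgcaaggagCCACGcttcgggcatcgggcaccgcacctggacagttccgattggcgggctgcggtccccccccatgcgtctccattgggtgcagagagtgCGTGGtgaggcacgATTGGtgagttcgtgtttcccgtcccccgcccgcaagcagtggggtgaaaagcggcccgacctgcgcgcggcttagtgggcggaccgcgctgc

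The related element ERSE-II, searched on both strands as ATTGG, any 1 base and CCACG, was in 2 of the 19 ER members, against 0.0444% of the genes with an entry. These were *Dnajb11*, an Hsp40 partner of BiP, and *Herpud1*, a membrane protein of ER-associated degradation, and the capitals mark all but the free base; the match of *Dnajb11* lies just after its start.
Dnajb11, chr16:22857852-22857862, plus strand: ATTGGcCCACG
Herpud1, chr8:94386377-94386387, plus strand: ATTGGgCCACG

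The core of the XBP1 element, searched on both strands as TGACGTGG, was in 0 of the 30 members with an entry, against 0.714% of genes, and so these letters are not in these windows. The heat shock element, searched on both strands as GAA, any 2 bases, TTC, any 2 bases and GAA, was in *Hsph1*, *Hspd1* and *Hspe1*, against 0.662% of genes. The genes *Hspd1* and *Hspe1* start next to each other on opposite strands and share the stretch below, which holds 2 overlapping matches, 1 on each strand, with the GAA and TTC letters in capitals.
Hspe1, chr1:55088039-55088096, plus strand: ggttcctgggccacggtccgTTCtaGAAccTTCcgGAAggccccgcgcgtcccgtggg

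The libraries held 1803928 to 3293285 reads each, so that 3 reads, taken as the floor, were worth 0.911 to 1.66 CPM, and this floor covers counting error only. The 38 genes together took 1.08% to 1.29% of the reads in *GFP*-NSPCs and 1.12% to 1.34% in *Dbx2*-NSPCs. *Dbx2* itself lay between 30.7 and 171 CPM (median 64.4) in *GFP*-NSPCs and between 114 and 232 CPM (median 147) in *Dbx2*-NSPCs, and was higher in the *Dbx2*-NSPC sample at 8 of the 8 numbers, with a log2 fold change of 1.26 (limma, Benjamini-Hochberg (BH) adjusted p = 0.00978). This difference depended on the set: it was 0.54 in samples 1 to 4, where the groups overlapped (limma, BH-adjusted p = 0.0891), and 1.99 in samples 5 to 8, where they did not, and the interaction passed (limma, BH-adjusted p = 1.04e-04). The table gives 1 value for transgene and endogenous gene together. In both groups samples 1 to 4 stood apart from samples 5 to 8, and what the number stands for is not given, so values are shown for each set of 4 where they matter. Genes of the mitochondrial genome took 3.19% to 6.96% of reads in *GFP*-NSPCs and 4.17% to 8.17% in *Dbx2*-NSPCs. Of the 10 NSPC markers all were tested, with summed levels of 7138 to 8061 CPM in *GFP*-NSPCs and 6227 to 7567 CPM in *Dbx2*-NSPCs, and 3 fell (*Fabp7*, *Pax6* and *Egfr*). Markers of other cells moved with the groups too: the 5 astrocyte markers summed to 243 to 525 CPM in *GFP*-NSPCs and 121 to 260.1 CPM in *Dbx2*-NSPCs (2 fell and 1 rose of 5 tested), the 5 oligodendrocyte markers to 50.2 to 106 CPM and 95.6 to 171 CPM (2 rose of 2 tested, *Mog* at 0 in all samples), the 4 ependymal markers to 9.66 to 24.2 CPM and 16.1 to 37.6 CPM (1 rose of 3 tested, *Tmem212* at 0) and the 5 endothelial markers to 0.67 to 11.7 CPM and 4.81 to 19.6 CPM (1 rose of 3 tested, *Cldn5* at 0). Of all tested genes 15.8% passed. The log2 fold changes of the astrocyte markers ran from -4.13 to 3.31, so that their sum hides opposite directions. The 6 microglial markers stayed within 0 to 2.45 CPM in *GFP*-NSPCs and 0 to 1.96 CPM in *Dbx2*-NSPCs, and *Aif1* and *Tmem119* were at 0 in all samples. The 4 pericyte markers summed to 0 to 0.82 CPM and 0.34 to 6.98 CPM, and the 5 neuronal markers to 13.3 to 40.1 CPM and 12.8 to 41.5 CPM, and none of these genes passed the test in limma (1 and 0 at an unadjusted p under 0.05). The part of these differences in the results on chaperones was not tested, and in RNA from whole cultures fewer cells of a type cannot be told apart from less RNA per cell.

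How many chaperone genes passed the test between *Dbx2*-NSPCs and *GFP*-NSPCs depended on the settings of the fit. Among these were the tool and whether the replicate number, or the set of samples, entered the fit. With neither (limma on log2(CPM + 0.5), adjusted over all tested genes), 1 of 37 members rose (*Hspa5*), 1 fell (*Hsp90b1*), and 35 did not pass. The 2 called members are 5.41% of those tested, beside 15.8% of all tested genes (8.03% rose and 7.78% fell). At an unadjusted p under 0.05 in limma were 10 members, beside 3654 of the 12533 tested genes. In edgeR and DESeq2, also with neither in the fit, these were 9 beside 3539 and 11 beside 3571. Counts at an unadjusted p over all samples elsewhere in this text are to be read beside these. With the replicate number as a block, 8 of 37 members passed (21.6%, beside 21.7% of all tested genes), 6 of them higher and 2 lower, and 7 of the 8 belong to the ER and 1, *Stip1*, to the cytosol. DESeq2, with neither in the fit, called 5 of 37 members, all of the ER, beside 17.5% of all tested genes. With the set as a covariate limma called 6 members, beside 3034 of the 12533 tested genes. They were *Hspa5*, *Hsp90b1*, *Canx*, *Pdia6*, *P4hb* and *Sel1l*, the last 4 at 0.0397, 0.00824, 0.0161 and 0.0279 (limma, BH-adjusted p). With that covariate edgeR called 7, the same members and *Pdia3* (18.9%, beside 23.4% of all tested genes). The median log2 fold change was 0.05 over the 37 members and -0.02 over all tested genes, and the median of its absolute value was 0.14 over the members and 0.23 over all tested genes. For 0 of the 37 members were the 8 samples of one group all above the 8 of the other, which was the case for 3.41% of all tested genes.

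**Figure D1:**
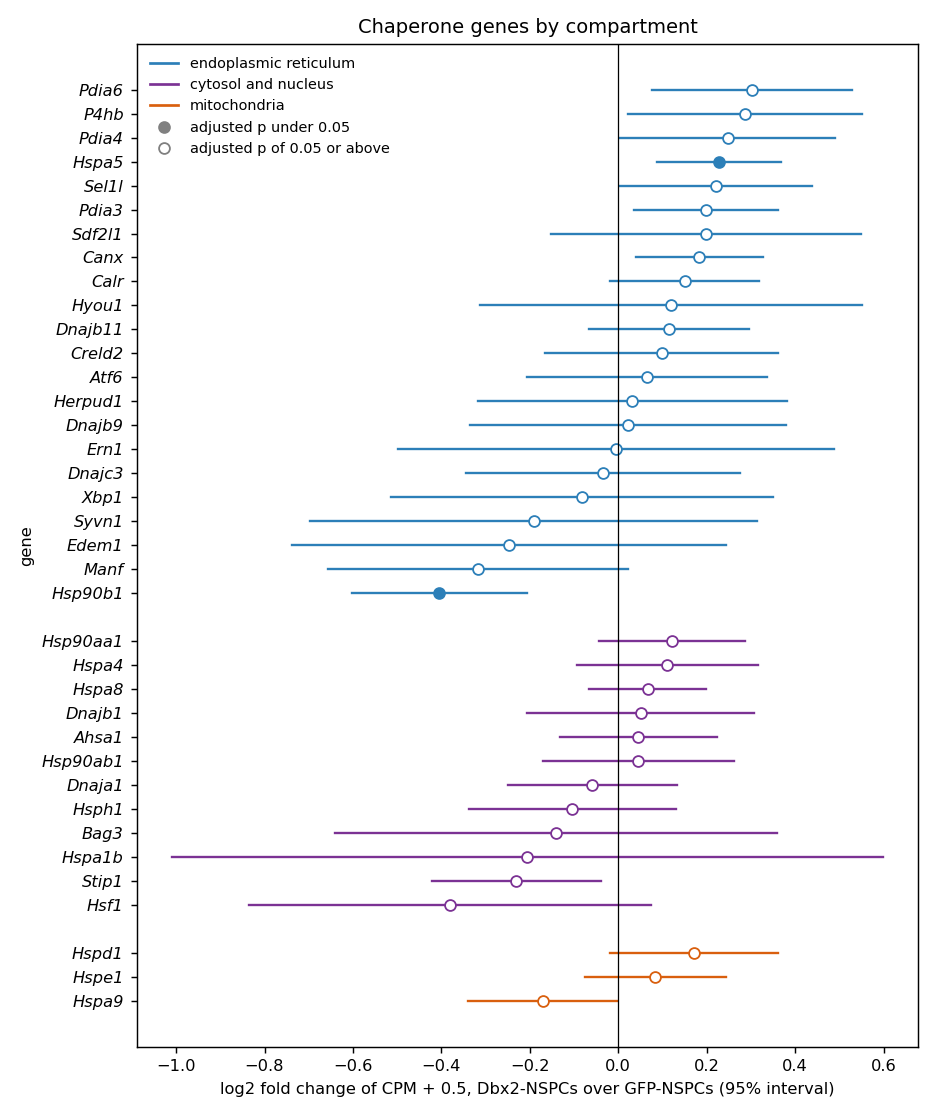
Log2 fold change of CPM + 0.5 (horizontal axis, *Dbx2*-NSPCs over *GFP*-NSPCs, 8 samples each) with its 95% interval for the 37 tested members (vertical axis), grouped by compartment and sorted by fold change; filled points passed the limma test. *Hspa5* at 0.23 and *Hsp90b1* at -0.40 are the filled points, the PDI genes *Pdia6*, *P4hb*, *Pdia4* and *Pdia3* lie at 0.20 to 0.30, and most cytosolic genes lie near 0.

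*Hspa5* encodes BiP, the Hsp70 of the ER lumen and the protein whose level is the usual readout of the UPR. It lies on chromosome 2 from 34771970 to 34777547 on the plus strand (GRCm38) and overlaps no other annotated gene. Its level was 641 to 802 CPM in *GFP*-NSPCs (median 693) and 754 to 942 CPM in *Dbx2*-NSPCs (median 817), and the *Dbx2*-NSPC sample was the higher at 8 of the 8 numbers. The groups overlapped only between 754 and 802 CPM, and they did not overlap in either set, samples 1 to 4 or samples 5 to 8. How many of all tested genes do not overlap within a set was not counted, here or for the other genes described in this way. The means were 709.7 ± 56.8 CPM and 831 ± 60.6 CPM (SD, n = 8), a log2 fold change of 0.23 with a standard error of 0.067 (limma, BH-adjusted p = 0.0258), or 17.1% more. The fold change was 0.27 in the samples numbered 1 to 4 and 0.18 in those numbered 5 to 8, neither of which passed alone (limma, BH-adjusted p = 0.0592 and 0.119). The call held in 24 of 31 alternatives, and was lost with no filter, with a variance prior without trend, in each set alone, without *GFP*-NSPC sample 3 (0.21, adjusted p = 0.0547), without *GFP*-NSPC sample 4 (0.21, adjusted p = 0.0507) and without *Dbx2*-NSPC sample 5 (0.20, adjusted p = 0.0569).

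*Hsp90b1* encodes GRP94, the Hsp90 of the ER lumen, which helps to fold integrins and receptors of growth factors and innate immunity, and which classically rises with BiP under ER stress. It lies on chromosome 10 from 86690209 to 86705509 on the minus strand and overlaps 3 other annotated genes. Its level was 541 to 832 CPM in *GFP*-NSPCs (median 691) and 432 to 599.6 CPM in *Dbx2*-NSPCs (median 516). Only *GFP*-NSPC samples 1 and 6 reached down into the range of the *Dbx2*-NSPCs, and within the samples numbered 5 to 8 the groups did not overlap. The mean fell from 691 ± 105 CPM to 519 ± 53.0 CPM (SD, n = 8), a log2 fold change of -0.40 with a standard error of 0.094 (limma, BH-adjusted p = 0.0061). The fold change was -0.40 in the samples numbered 1 to 4 (limma, BH-adjusted p = 0.0605) and -0.41 in those numbered 5 to 8 (limma, BH-adjusted p = 0.00479). The call held in 30 of the 31 alternatives, and the samples numbered 1 to 4 alone were the exception.

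The ratio of *Hspa5* to *Hsp90b1* within a sample needs no scaling between libraries, and it is given as a description, since the pair was chosen after the values were seen. It was 1.29, 0.93, 0.77, 0.82, 1.05, 1.26, 1.2 and 1.1 in *GFP*-NSPC samples 1 to 8. In *Dbx2*-NSPC samples 1 to 8 it was 1.41, 1.46, 1.6, 1.5, 1.87, 1.89, 1.72 and 1.47. All 8 values of the *Dbx2*-NSPCs lay above all 8 of the *GFP*-NSPCs, with means of 1.61 ± 0.19 and 1.05 ± 0.198 (SD, n = 8).

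**Figure D2:**
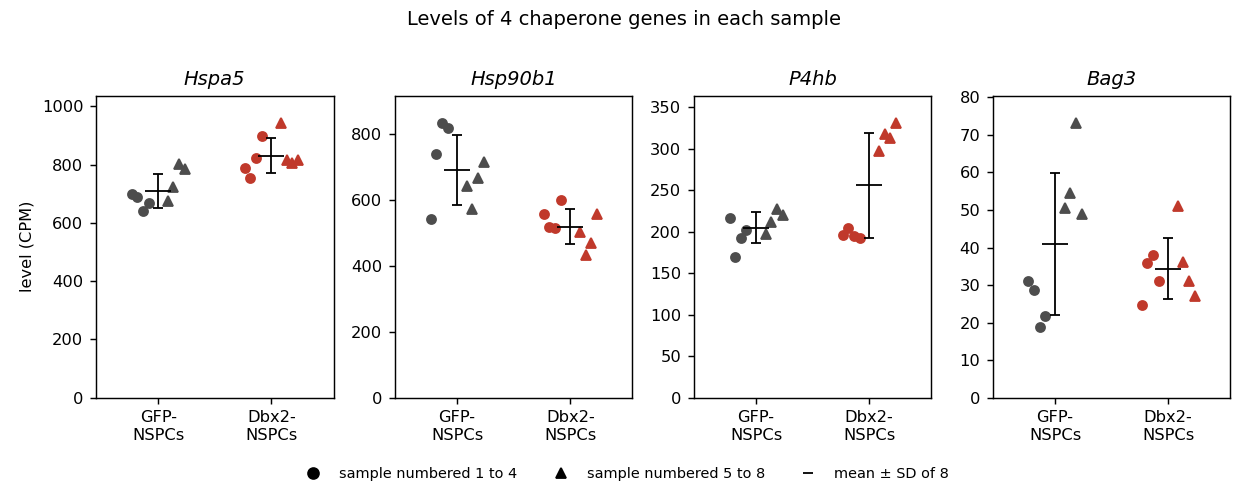
Level in CPM (vertical axis, from 0) of *Hspa5*, *Hsp90b1*, *P4hb* and *Bag3* in each of the 8 *GFP*-NSPC and 8 *Dbx2*-NSPC samples; circles are samples numbered 1 to 4, triangles those numbered 5 to 8, and the bars give the mean ± SD. *Hspa5* is higher and *Hsp90b1* lower in both sets of numbers, *P4hb* is high only in *Dbx2*-NSPC samples 5 to 8 (297 to 331 CPM), and *Bag3* is high in *GFP*-NSPC samples 5 to 8 (48.9 to 73.1 CPM).

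The lectin chaperones bind glycoproteins that carry a trimmed sugar and hold them until they fold. Calnexin (*Canx*), the membrane-bound form, was at 713 to 798 CPM in *GFP*-NSPCs (median 744) and at 791 to 1072 CPM in *Dbx2*-NSPCs (median 814). The *GFP*-NSPC samples were close together, and *Dbx2*-NSPC sample 4 at 1072 CPM stood above the others. The log2 fold change was 0.18 (limma, BH-adjusted p = 0.076, with the replicate block 0.0447), and 0.14 without *Dbx2*-NSPC sample 4 (adjusted p = 0.108). Calreticulin (*Calr*), the soluble form, was at 474 to 627 CPM (median 553) and 512 to 746 CPM (median 625), with a log2 fold change of 0.15 (limma, BH-adjusted p = 0.229). *Hyou1*, the Hsp110 relative that exchanges nucleotide on BiP, was at 6.65 to 13.8 CPM and 7.45 to 22.1 CPM, a level at which the 95% interval of its fold change ran from -0.31 to 0.55.

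The protein disulfide isomerases (PDIs) form and reshuffle disulfide bonds, and *P4hb* (the founding PDI, also a subunit of prolyl 4-hydroxylase), *Pdia3* (ERp57, the partner of the lectins), *Pdia4* and *Pdia6* represent them. All 4 had higher means in *Dbx2*-NSPCs, with log2 fold changes of 0.20 to 0.30. In the test over all samples 0 of 4 passed in limma and in edgeR (4 at an unadjusted p under 0.05 in each) and 2 in DESeq2, and with the replicate block 3 passed. Beside these, 17.5% of all tested genes passed in DESeq2 and 21.7% with the block. At an unadjusted p under 0.05 were 3654 of the 12533 tested genes in limma and 3539 in edgeR. *Pdia6* was at 123 to 189 CPM in *GFP*-NSPCs (median 153) and at 163 to 229 CPM in *Dbx2*-NSPCs (median 182), higher at 7 of the 8 numbers. Its log2 fold change was 0.30 (limma, BH-adjusted p = 0.0635, with the replicate block 0.0204), and the call was gained without *GFP*-NSPC sample 3 (adjusted p = 0.0434) and without *GFP*-NSPC sample 4 (adjusted p = 0.0411). *Pdia3* was at 292 to 391 CPM (median 314) and 293 to 406 CPM (median 378), also higher at 7 of the 8 numbers. Its log2 fold change was 0.20 (limma, BH-adjusted p = 0.0935, with the replicate block 0.0307), and it was gained without *GFP*-NSPC sample 5 (adjusted p = 0.0355) and without *Dbx2*-NSPC sample 7 (adjusted p = 0.0306). *Pdia4* was at 113 to 150.2 CPM (median 130.3) and 112 to 228 CPM (median 149), with a fold change of 0.47 in the samples numbered 1 to 4 and 0.03 in those numbered 5 to 8, and the difference between them did not pass the test of the interaction (limma, BH-adjusted p = 0.184).

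*P4hb*, on chromosome 11 from 120560298 to 120573253 on the minus strand, was the ER member whose difference between *Dbx2*-NSPCs and *GFP*-NSPCs depended on the set of samples. In *GFP*-NSPC samples 1 to 4 its level was 217, 169, 193 and 202 CPM, and in *Dbx2*-NSPC samples 1 to 4 it was 196, 205, 195 and 193 CPM. In *GFP*-NSPC samples 5 to 8 it was 198, 211, 227 and 220.02 CPM, and in *Dbx2*-NSPC samples 5 to 8 it was 297, 317, 313 and 331 CPM. All 4 *Dbx2*-NSPC samples of the latter set lay above every other sample, and the rest overlapped. The log2 fold change was 0.02 in the samples numbered 1 to 4 (limma, BH-adjusted p = 0.926) and 0.55 in those numbered 5 to 8 (limma, BH-adjusted p = 7.46e-05), and the difference of 0.54 between them passed the test of the interaction (limma, BH-adjusted p = 0.00516), which 9.44% of all tested genes passed. Over all samples the log2 fold change was 0.29 (limma, BH-adjusted p = 0.139, with the replicate block 0.0482).

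The UPR sensors and its transcription factor were low, and their differences did not pass the test. *Ern1*, whose product IRE1 splices the *Xbp1* mRNA, was at 2.22 to 6.52 CPM in *GFP*-NSPCs and 2.82 to 6.08 CPM in *Dbx2*-NSPCs, a mean of 12.6 and 12.8 reads a sample. *Atf6*, the membrane-bound factor that is cut free under stress, was at 25.3 to 43.1 CPM and 29.1 to 46.5 CPM. *Xbp1*, the transcription factor, was at 11.1 to 18.1 CPM in *GFP*-NSPCs and 6.10 to 17.6 CPM in *Dbx2*-NSPCs, and *Dbx2*-NSPC samples 4 and 3 (6.10 and 8.79 CPM) were below the rest. The log2 fold changes of these genes lay between -0.08 and 0.06 (0 of 3 passed in limma, edgeR and DESeq2, and 0 of 3 were at an unadjusted p under 0.05 in each). Reads near the poly-A tail do not tell the spliced *Xbp1* mRNA from the unspliced one.

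The Hsp40 proteins of the ER (*Dnajb9*, *Dnajb11* and *Dnajc3*) bring clients to BiP, and 0 of 3 passed (0 of 3 at an unadjusted p under 0.05 in limma). *Dnajb11* was at 40.6 to 58.7 CPM and 46.3 to 57.8 CPM. *Dnajb9* was at 8.31 to 16.5 CPM and 8.97 to 14.8 CPM. *Dnajc3*, which also restrains the kinase PERK, was at 64.2 to 130.4 CPM in *GFP*-NSPCs and 66.4 to 123 CPM in *Dbx2*-NSPCs, and in *GFP*-NSPCs its mean was 79.4 ± 11.1 CPM in the samples numbered 1 to 4 and 122 ± 10.8 CPM in those numbered 5 to 8 (SD, n = 4).

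ER-associated degradation sends misfolded proteins back to the cytosol for the proteasome. *Sel1l*, the adaptor of the ubiquitin ligase, was at 94.8 to 139 CPM in *GFP*-NSPCs (median 125) and 117 to 187 CPM in *Dbx2*-NSPCs (median 141), higher at 7 of the 8 numbers. Its log2 fold change was 0.22 (limma, BH-adjusted p = 0.165, with the replicate block 0.0452). The ligase itself, *Syvn1* (HRD1), was at 9.12 to 15.7 CPM and 3.23 to 15.1 CPM, and its log2 fold change of -0.19 became 0.02 without *Dbx2*-NSPC sample 4. *Herpud1* was at 10.4 to 22.2 CPM and 11.1 to 21.2 CPM, and *Edem1*, a mannosidase-like protein that marks clients, at 6 to 13.3 CPM and 3.52 to 11.9 CPM. Of these 4 genes *Sel1l* was the 1 that passed under the block, beside 21.7% of all tested genes. *Syvn1* overlaps *Mrpl49* (41 CPM on average) on the other strand, and the counting strand is not given in the sources used here.

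The remaining ER members are secreted or lumenal proteins that ER stress induces. *Manf*, a trophic factor held in the ER, was at 70.9 to 110.0 CPM in *GFP*-NSPCs (median 82.5) and 32.6 to 91.3 CPM in *Dbx2*-NSPCs (median 71.5). Its log2 fold change was -0.32 (limma, BH-adjusted p = 0.204) and -0.17 without *Dbx2*-NSPC sample 4, the sample at 32.6 CPM. This gene shares 149 bases near its transcript end with *Dcaf1* (30.0 CPM) and overlaps *Rbm15b* (47.2 CPM) on the same strand, so its level is uncertain. *Sdf2l1*, a partner of the ER Hsp40 proteins, was at 11.1 to 23.1 CPM and 14 to 26 CPM, and *Creld2* at 10.9 to 16.7 CPM and 11.8 to 15.2 CPM, and 0 of these 3 genes were at an unadjusted p under 0.05 in limma.

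In the cytosol 0 of 12 tested members passed in limma, edgeR and DESeq2 (1 at an unadjusted p under 0.05 in each). The Hsp70 *Hspa8* (HSC70), the constitutive form, was at 469.9 to 553 CPM in *GFP*-NSPCs (median 515) and 477 to 603 CPM in *Dbx2*-NSPCs (median 540.04), with a log2 fold change of 0.07 and a 95% interval from -0.07 to 0.20. Its relative *Hspa4* was at 343 to 555 CPM and 368 to 501 CPM, with a log2 fold change of 0.11. *Hspa1b*, the Hsp70 that heat shock induces, was near the floor, at 0 to 1.66 CPM and 0.33 to 2.48 CPM. *Hsph1* (HSP110) was at 97.5 to 132 CPM and 82.2 to 159.7 CPM, with a log2 fold change of -0.10, and -0.19 without *Dbx2*-NSPC sample 4, which alone was above 115 CPM in its group (adjusted p = 0.584 and 0.145).

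Cytosolic Hsp90 completes the folding of kinases and steroid receptors, and 0 of its 4 members, co-chaperones included, passed in limma, edgeR and DESeq2 (1 at an unadjusted p under 0.05 in each). *Hsp90ab1*, the constitutive form, was at 3691 to 5454 CPM in *GFP*-NSPCs (median 4480) and 3717 to 5403 CPM in *Dbx2*-NSPCs (median 4887). Its spread followed the sets, with means in *GFP*-NSPCs of 4037 ± 247 CPM and 5009.5 ± 335 CPM (SD, n = 4) in the samples numbered 1 to 4 and 5 to 8. *Hsp90aa1*, the inducible form, was at 714 to 845 CPM (median 797) and 719 to 1071 CPM (median 859), and its log2 fold change was 0.12 (limma, BH-adjusted p = 0.329). *Stip1* (HOP), which links Hsp70 to Hsp90, was at 186 to 259 CPM (median 230.2) and 159 to 250.1 CPM (median 186), lower at 6 of the 8 numbers. Its log2 fold change was -0.23 (limma, BH-adjusted p = 0.0958, with the replicate block 0.0378), and the call was gained without *GFP*-NSPC sample 1 (adjusted p = 0.0445) and without *Dbx2*-NSPC sample 4 (adjusted p = 0.0228). *Ahsa1*, which speeds the Hsp90 ATPase, had a log2 fold change of 0.04.

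The heat shock response has HSF1 as its transcription factor, and *Hsf1* was at 12.7 to 21.3 CPM in *GFP*-NSPCs (median 15.3) and 4.66 to 18.0 CPM in *Dbx2*-NSPCs (median 13.2). Its log2 fold change was -0.38 (limma, BH-adjusted p = 0.257), and -0.19 without *Dbx2*-NSPC sample 4, the sample at 4.66 CPM (adjusted p = 0.425). The Hsp40 genes *Dnajb1* and *Dnaja1* had log2 fold changes of 0.05 and -0.06 (limma, BH-adjusted p = 0.830 and 0.724). *Dnaja1* shares its transcript end with *Smu1* (66.5 CPM), which lies on the other strand.

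*Bag3*, a partner of Hsp70 that directs clients to autophagy and a sensitive target of HSF1, was the cytosolic member whose difference depended on the set of samples. It lies on chromosome 7 from 128523616 to 128546981 on the plus strand and overlaps 1 other annotated gene on that strand. In *GFP*-NSPC samples 1 to 4 its level was 31.0, 28.6, 18.9 and 21.7 CPM, and in samples 5 to 8 it was 50.4, 54.6, 73.1 and 48.9 CPM. In *Dbx2*-NSPC samples 1 to 4 it was 24.7, 35.8, 38.1 and 31.2 CPM, and in samples 5 to 8 it was 51.0, 36.0, 31.15 and 27.0 CPM. *GFP*-NSPC samples 5 to 8 thus held the high values, and only *Dbx2*-NSPC sample 5 reached into their range. The log2 fold change was 0.38 in the samples numbered 1 to 4 (limma, BH-adjusted p = 0.233) and -0.66 in those numbered 5 to 8 (limma, BH-adjusted p = 0.0188), and the difference of -1.04 passed the test of the interaction (limma, BH-adjusted p = 0.0156). With the variance prior of limma fitted without a trend, this test gave an adjusted p of 0.0513. Over all samples the log2 fold change was -0.14 (limma, BH-adjusted p = 0.745).

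In mitochondria 0 of 3 members passed in limma, edgeR and DESeq2 (1, 0 and 1 at an unadjusted p under 0.05). *Hspa9* (mortalin), the Hsp70 of protein import, was at 271 to 348 CPM in *GFP*-NSPCs (median 322) and 231 to 317 CPM in *Dbx2*-NSPCs (median 281), lower at 7 of the 8 numbers, with a log2 fold change of -0.17 (limma, BH-adjusted p = 0.166). *Hspd1* (Hsp60) was at 276 to 405 CPM (median 339.9) and 316 to 474 CPM (median 373), with a log2 fold change of 0.17 (limma, BH-adjusted p = 0.223). *Hspe1* (Hsp10), its partner, was at 225 to 268 CPM (median 243) and 229 to 321 CPM (median 246), with a log2 fold change of 0.08 (limma, BH-adjusted p = 0.507). In the samples numbered 5 to 8 alone *Hspe1* rose by 0.27 (limma, BH-adjusted p = 0.042), *Hspd1* had 0.34 (limma, BH-adjusted p = 0.0505) and *Hspa9* fell by 0.29 on the log2 scale (limma, BH-adjusted p = 0.0489). In the samples numbered 1 to 4 the same genes had -0.10, 0.00 and -0.05, and the differences between the sets did not pass the test of the interaction (limma, BH-adjusted p = 0.0745, 0.191 and 0.348). Beside these nuclear genes, the share of reads from the mitochondrial genome was higher in *Dbx2*-NSPCs at 8 of the 8 numbers, and its part in the CPM of the members was not tested beyond the recalculation without those genes, under which 5 members passed (*Hspa5*, *Hsp90b1*, *Canx*, *Pdia3* and *Pdia6*). The share of all tested genes that passed under this recalculation is not given here.

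A score for each compartment was the mean log2(CPM + 0.5) of its tested members less the mean over all tested genes, and is given with no test. The ER gave 1.59 ± 0.087 for *GFP*-NSPCs and 1.63 ± 0.084 for *Dbx2*-NSPCs (SD, n = 8), a difference of 0.036 that is below the spread between samples. The cytosolic score was 2.59 ± 0.093 and 2.52 ± 0.082, a difference of -0.075 that is also below the spread between samples. This score was lower in the *Dbx2*-NSPC sample at 7 of the 8 numbers. Of its 12 genes 6 had positive and 6 negative log2 fold changes, with a median of -0.007. The lowest was *Hsf1* at -0.38, and *Hspa1b*, near the floor, had -0.21. The difference of the cytosolic score was -0.016 in the samples numbered 1 to 4 and -0.134 in those numbered 5 to 8. The mitochondrial score was 3.87 ± 0.121 and 3.88 ± 0.117, and its difference was -0.063 in the samples numbered 1 to 4 and 0.083 in those numbered 5 to 8. Over all 37 members the score was 2.10 ± 0.062 and 2.10 ± 0.041.

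**Figure D3:**
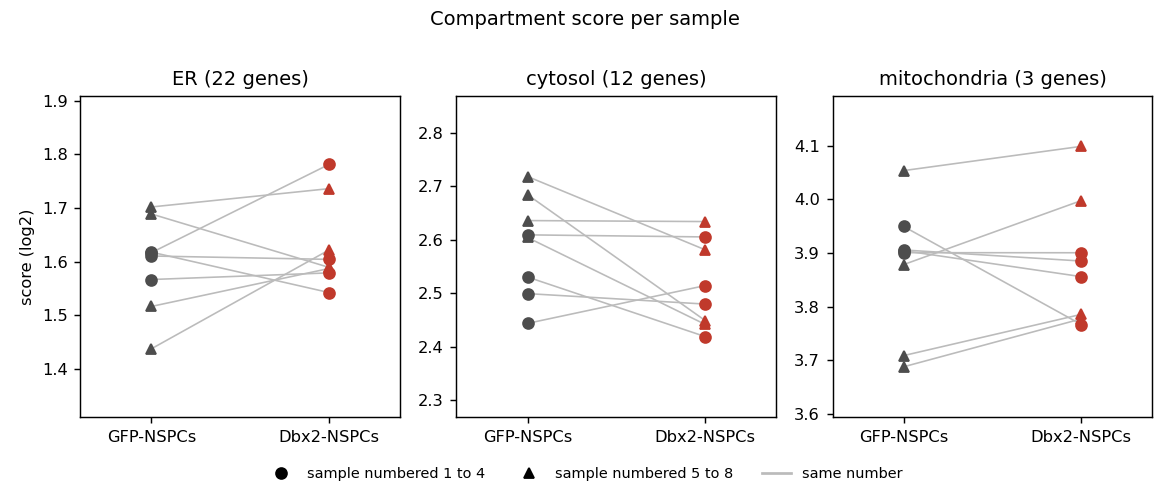
Score per sample (vertical axis, mean log2(CPM + 0.5) of the tested members less that of all tested genes) for the ER, the cytosol and the mitochondria in 8 *GFP*-NSPC and 8 *Dbx2*-NSPC samples; circles are samples numbered 1 to 4, triangles those numbered 5 to 8, and lines join samples of the same number. The groups overlap in all 3 scores, and 7 of the 8 lines fall for the cytosol.

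Taken set by set, 0 of 37 members passed in the samples numbered 1 to 4 alone, beside 15.6% of all tested genes. At an unadjusted p under 0.05 in limma were 7 members there, beside 3636 of the 12533 tested genes. In the samples numbered 5 to 8 alone 7 passed (18.9%, beside 23.2% of all tested genes). *P4hb*, *Pdia6* and *Hspe1* rose and *Hsp90b1*, *Bag3*, *Stip1* and *Hspa9* fell there. The fold changes of *Hsp90b1* were nearly equal in the sets (-0.40 and -0.41) and those of *Pdia6* were 0.26 and 0.35. The interaction passed for 2 of 37 members, *P4hb* and *Bag3* (5.41%, beside the 9.44% of all tested genes). *Xbp1* had -0.49 and 0.33 and *Dnajb1* 0.29 and -0.19, in opposite directions, and neither difference passed (limma, BH-adjusted p = 0.173 for both). The members also differed between the sets within the controls: over the *GFP*-NSPCs the log2 level of *Bag3* was 1.17 higher and that of *Dnajc3* 0.62 higher in the samples numbered 5 to 8, and the other 35 members differed by at most 0.5.

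**Figure D4:**
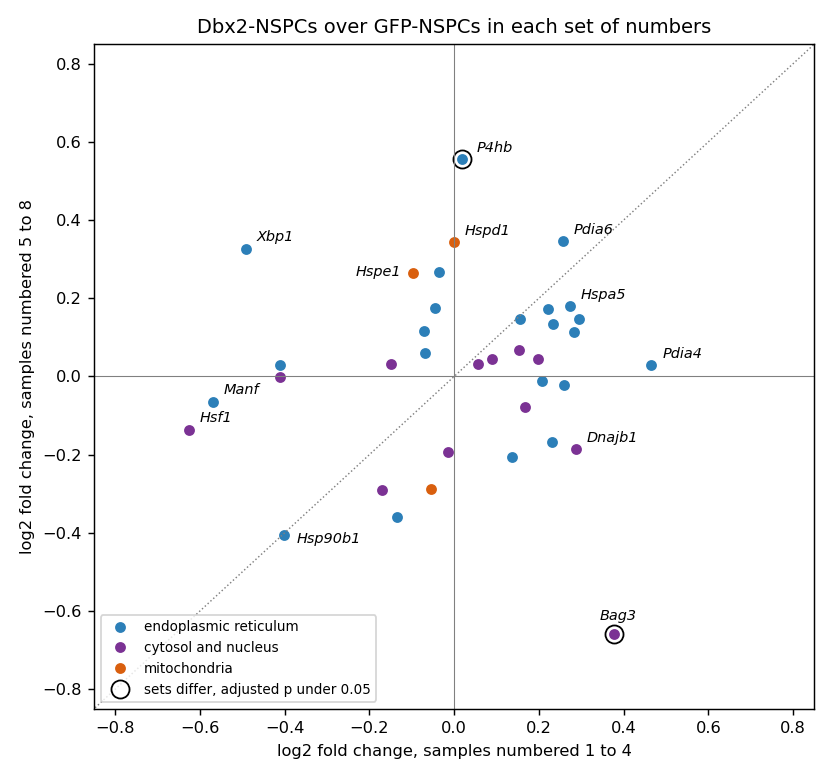
Log2 fold change of each tested member (*Dbx2*-NSPCs over *GFP*-NSPCs) in the samples numbered 1 to 4 (horizontal axis) and in those numbered 5 to 8 (vertical axis), 4 samples of each group in each set, coloured by compartment; the dotted line marks equal fold changes and rings mark members that passed the test of the interaction. *P4hb* lies at 0.02 and 0.55 and *Bag3* at 0.38 and -0.66, while *Hsp90b1* and *Hspa5* lie near the line.

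*Dbx2*-NSPC sample 4 was the highest or the lowest of its group for 22 of the 37 members (59.5%), and for 39.4% of all tested genes. No other sample was so for more than 16 of the members. Without it 3 members passed, *Hspa5*, *Hsp90b1* and *Stip1*, and the ER and cytosolic scores differed by 0.048 and -0.088. Over all samples left out in turn, 1684 to 2210 of all tested genes passed.

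The genes around the members were read from lists chosen by function, beside the 15.8% of all tested genes that passed. Where the replicate block changes a count, that count is given too, to be read beside 21.7% of all tested genes. Of 30 further ER folding enzymes, co-chaperones and lectin cycle genes 2 rose and 0 fell (5 and 0 with the block). *Mlec*, malectin, a lectin of early N-glycans, rose from 190.4 ± 23.7 CPM to 252 ± 27.4 CPM (SD, n = 8; log2 fold change 0.40, limma, BH-adjusted p = 0.00363), and *Uggt1*, the glucosyltransferase that returns unfolded glycoproteins to the lectins, from 114 ± 20.2 CPM to 146 ± 25.4 CPM (0.36, limma, BH-adjusted p = 0.0478). Of 23 tested genes of ER-associated degradation 3 rose and 0 fell (4 and 1 with the block, the lower being *Ube2g2*, a ubiquitin-conjugating enzyme). They were *Man1b1*, the mannosidase that trims misfolded glycoproteins (0.49, limma, BH-adjusted p = 0.00159, with no overlap between the groups), *Ubxn4*, an ER membrane partner of the ATPase p97 (0.29, limma, BH-adjusted p = 0.0061), and *Selenos*, a selenoprotein of the same complex (0.25, limma, BH-adjusted p = 0.0332). Of 23 tested genes of the translocon, signal peptidase and oligosaccharyltransferase 1 rose and 2 fell. *Sec61a1*, the channel of the translocon, rose (0.31, limma, BH-adjusted p = 0.0131), while *Spcs3*, a signal peptidase subunit, fell by 0.70 on the log2 scale (limma, BH-adjusted p = 0.00984) and *Ssr1*, a subunit of the TRAP complex, by 0.30 (limma, BH-adjusted p = 0.0236).

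Of the 16 tested genes of UPR signalling outside the members 1 rose and 1 fell. *Ddit3*, which encodes CHOP, the pro-apoptotic transcription factor downstream of PERK, fell from 44.0 ± 11.1 CPM to 27.5 ± 6.35 CPM (SD, n = 8) and was lower at 8 of the 8 numbers (-0.65, limma, BH-adjusted p = 0.0144). The gene that rose, *Atf3*, is named after its values were seen, and was low, at 1.61 ± 1.23 CPM and 4.14 ± 3.01 CPM (SD, n = 8; limma, BH-adjusted p = 0.0469); edgeR did not call it (adjusted p = 0.0596), and with the replicate block it passed (adjusted p = 0.0118). *Atf4*, upstream of *Ddit3*, was at 481 ± 119.98 CPM and 465 ± 107 CPM (SD, n = 8), with a log2 fold change of -0.05 (limma, BH-adjusted p = 0.862), and is likewise named after its values were seen.

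Among 20 tested Hsp70, Hsp110, Hsp40 and small heat shock genes of the cytosol outside the members 4 rose and 1 fell (7 and 1 with the block), and the 2 largest fold changes among the called genes of these 8 lists were here. *Hspb8*, a small heat shock protein that works with BAG3, rose from 15 ± 16.6 CPM to 52.6 ± 14.2 CPM (SD, n = 8; log2 fold change 2.17, limma, BH-adjusted p = 2.53e-04), higher at 7 of the 8 numbers. *Cryab*, alpha B-crystallin, which is also abundant in glia, rose from 5.96 ± 3.78 CPM to 29.1 ± 22.4 CPM (SD, n = 8; 2.11, limma, BH-adjusted p = 9.99e-04), higher at 8 of the 8 numbers. *Dnajb2*, an Hsp40 of neural cells, rose by 0.49 (limma, BH-adjusted p = 0.00946). Of 22 co-chaperones and regulators 0 rose and 2 fell (1 and 2 with the block): *Ptges3*, which encodes the Hsp90 co-chaperone p23, fell from 287 ± 36.4 CPM to 197 ± 18.1 CPM (SD, n = 8; -0.53, limma, BH-adjusted p = 2.53e-04), and *Sgta*, which sorts tail-anchored and mislocalised proteins, from 315 ± 29.5 CPM to 258 ± 19.5 CPM (SD, n = 8; -0.29, limma, BH-adjusted p = 0.00946), each lower at 8 of the 8 numbers. Of 21 mitochondrial chaperones, import and quality control genes 0 passed in limma, edgeR and DESeq2, and 0 were at an unadjusted p under 0.05 in each. Of 11 immediate early genes, which respond to the handling of cultures, *Btg2* rose (0.89, limma, BH-adjusted p = 0.00612), and the list had a median log2 fold change of 0.28, beside -0.02 for all tested genes. With the replicate block 5 of these 11 passed, 4 higher and 1 lower, and the part of handling in the levels of the heat shock genes was not tested.

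**Figure D5:**
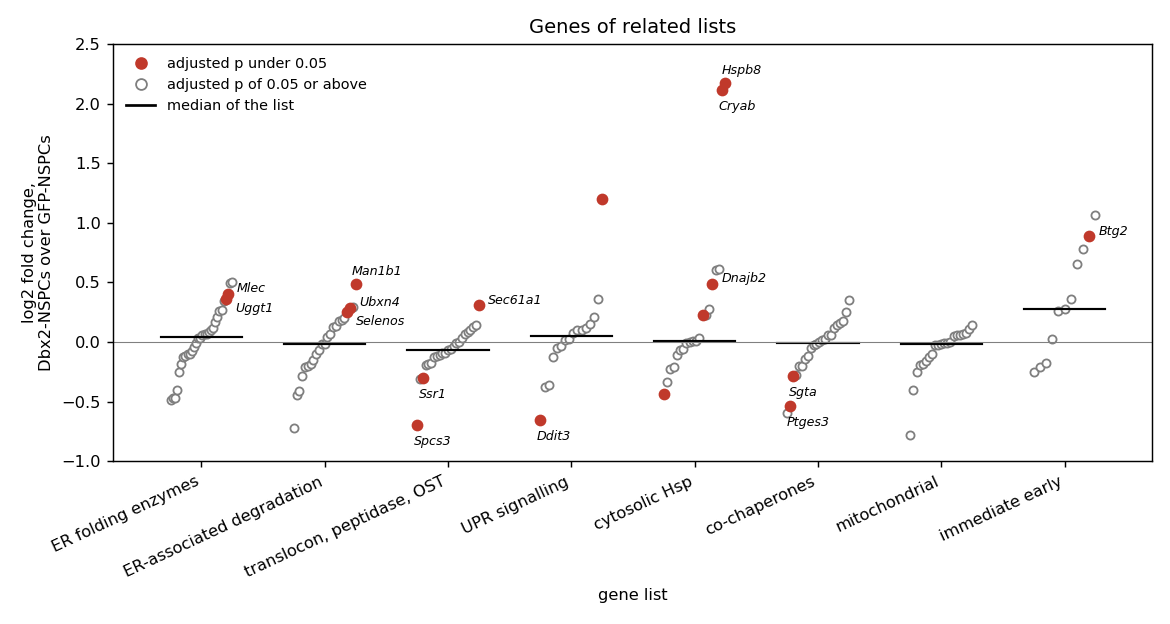
Log2 fold change (vertical axis, *Dbx2*-NSPCs over *GFP*-NSPCs, 8 samples each) of every tested gene in 8 related lists (horizontal axis); red points passed the limma test and black lines are the medians of the lists. *Hspb8* and *Cryab* stand at 2.17 and 2.11, and the medians of 7 lists lie between -0.07 and 0.05.

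The spread between samples set what these comparisons could show for most members. For the 20 members whose mean reached 100 CPM in either group, the 95% interval of the log2 fold change reached at most 0.31 to either side, and for the 11 members under 20 CPM in both groups it reached 0.26 to 0.80. For 25 of the 37 members the interval lay within ±0.5, and for 36 within ±1. In *GFP*-NSPCs the coefficient of variation of 35 of the 37 members was larger than counting error gives at their mean number of reads, and in *Dbx2*-NSPCs that of 34.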

How the data were processed

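RNA of the 8 *GFP*-NSPC and 8 *Dbx2*-NSPC samples was made into libraries from 100 ng of total RNA with a 3′ end kit. According to the submitters' processing notes, FastQC 0.11.8, STAR 2.5.0a and edgeR 3.36 were used, with the builds GRCm38 and mm10, and the counting tool and its strand setting are not given in the sources used here. The authors deposited CPM values for 30386 genes. Of the values above 0, 99.9939% were whole multiples of what 1 read is worth (within 0.005 CPM), so reads were recovered, at 1803928 to 3293285 a sample.

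Genes above 1 CPM in at least 4 samples (12533) were tested with limma 3.58.1 (trend) on log2(CPM + 0.5) in R 4.3.3, with Benjamini-Hochberg adjustment and a threshold of 0.05, and without a covariate. The study's own edgeR fit took the cell line as a covariate, which the labels used here do not give. Differences between the pairs of lines therefore remain in the error of the main fit. Other differences between a *Dbx2* line and its *GFP* partner line fall in the fold change and cannot be told apart from the transgene. The interaction of transgene and number set was tested in the same way. A fold change on this scale understates the change of low genes. Alternatives on the recovered reads used edgeR 4.0.16 and DESeq2 1.42.0, and further ones were other scalings, filters, pseudocounts and variance priors, number set as a covariate, each number set alone, the replicate number as a block, and leaving out each sample. CPM without genes of the mitochondrial genome was added after seeing the data. Groups come from the sample labels. The study describes independent experiments for each pair of lines, but the labels do not tie samples to them. The 8 samples of a group are thus repeat experiments with these lines. Their p-values measure the spread between these samples, which may be partly technical, and not the spread between independently made lines.

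The replicate number in the sample titles was checked as a pairing: residuals of the 8 same-numbered pairs correlated at 0.152 to 0.303 (mean 0.226), against a mean of 0.199 for different numbers of the same set and -0.206 between sets, so that most of the pairing is that of the sets. Members and lists were chosen with earlier results of these data known. Every member is accounted for. In each other list the 3 genes with the smallest limma adjusted p under 0.05 and a group mean of 10 CPM or more are named. Positions are from GENCODE M21 (GRCm38). For 10 members another gene matched part of the last 500 bases of a transcript (at least 101 bases, 98% identity). For 2 of these, *Manf* and *Dnaja1*, such a gene was above 1 CPM. The others were *Hsp90b1*, *Dnajb9*, *Hspa8*, *Hsp90aa1*, *Hspb1*, *Ahsa1*, *Hspd1* and *Hspe1*. How reads that match several genes were counted is not given in the sources used here, and its part in these levels was not tested. Figures and scores were made with Python 3.11.15, pandas 2.3.3 and matplotlib 3.10.9.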

Additional observations from a re-analysis of the deposited data

Results flagged for a closer look

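Of 82 groups of 8 values examined for a single sample standing apart by Dixon's criterion at the 95% level, 6 had one, and chance gives about 1 in 20. *Dbx2*-NSPC sample 4 gave 3 of them: *Canx* at 1071.75 CPM (the others at 790.74 to 883.11), *Hsph1* at 159.67 CPM (the others at 82.16 to 114.72) and *Hsf1* at 4.66 CPM (the others at 12.19 to 17.98). *GFP*-NSPC sample 5 stood above its group for *Pdia3*, at 390.66 CPM (the others at 292.48 to 335.61). *GFP*-NSPC sample 1 stood above its group for *Hspb1*, at 2.42 CPM, and *Dbx2*-NSPC sample 6 for *Hspa1b*, at 2.48 CPM, both of which are levels of a few reads.

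The log2 fold change in the samples numbered 5 to 8 less that in the samples numbered 1 to 4 was 0.54 for *P4hb* (limma interaction, adjusted p = 0.00516) and -1.04 for *Bag3* (limma interaction, adjusted p = 0.0156).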

How the results depend on the processing

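Against 2 members called, 5 were called from CPM without genes of the mitochondrial genome, 5 with DESeq2, 1 with a variance prior without trend, 1 with no filter on low values, 6 with number set as a covariate, 7 with edgeR and that covariate, 8 with the replicate block, 0 in the samples numbered 1 to 4 alone and 7 in those numbered 5 to 8 alone. Leaving out 1 sample gave 1 to 3, beside 1684 to 2210 of all tested genes. The 2 members that differed between the sets were 1 without the trend. All genes called, 1982 in the main fit, were 2197 with DESeq2 and 3034 with number set as a covariate. They were 2938 with edgeR and that covariate and 2723 with the replicate block. In the samples numbered 1 to 4 alone they were 1950, and in those numbered 5 to 8 alone 2911. For the remaining settings above they are not given here. Genes called in the related lists went from 18 to 29 with number set as a covariate, 29 with edgeR and that covariate, 31 with the replicate block and 29 in the samples numbered 5 to 8 alone. The cause of these shifts was not tested.

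Signs turned for 15 members, in 47 cases, 0 of them called either way. In the samples numbered 5 to 8 alone the log2 fold change was 0.33 for *Xbp1*, 0.06 for *Ern1*, -0.17 for *Herpud1*, 0.03 for *Syvn1*, -0.02 for *Hyou1*, -0.01 for *Creld2*, 0.03 for *Dnaja1*, -0.19 for *Dnajb1* and -0.08 for *Ahsa1*. In those numbered 1 to 4 alone it was -0.05 for *Atf6*, -0.07 for *Dnajb9*, -0.04 for *Dnajb11*, 0.14 for *Dnajc3*, 0.38 for *Bag3* and -0.10 for *Hspe1*. *Ern1* had 0.02 under TMM, under median-of-ratios scaling and without the mitochondrial genome, and 0 with a pseudocount of 0.1. Over the samples left out in turn, *Xbp1* ranged from -0.13 to 0.07, *Atf6* from -0 to 0.11, *Ern1* from -0.12 to 0.07, *Dnajb9* from -0.03 to 0.10, *Dnajc3* from -0.12 to 0.04, *Herpud1* from -0.04 to 0.12, *Syvn1* from -0.27 to 0.02, *Dnaja1* from -0.10 to 0 and *Dnajb1* from -0.03 to 0.09. The score differences ranged from 0.013 to 0.051 (ER), -0.096 to -0.057 (cytosol) and -0.021 to 0.036 (mitochondria). Scaling moved the median log2 fold change of all genes from -0.02 to at most 0.01. For most members the spread between samples exceeded counting error, by amounts that varied with the level. In *GFP*-NSPCs the coefficient of variation of *Hspa5* was 8.0%, beside 2.27% from counting. For the low gene *Xbp1* it was 16.8%, beside 15.7%, so that read depth remained a limit for such members.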
